A study of Rattus norvegicus with 12 samples.

Results

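The amino acid breakdown enzymes described here are 9 genes of liver amino acid catabolism, Tdo2, Kmo and Haao for tryptophan, Tat, Hpd and Fah for tyrosine, Hal for histidine, Sds for serine and Prodh for proline. Every probe set whose only gene symbol in the platform annotation was one of these names was taken, which gave 10 probe sets of 31042 on the array (1 for each gene and 2 for Prodh, 1372920_at and 1391371_at), and all 9 listed genes were found. Expression was measured on 12 rat arrays, each from freshly isolated, uncultured hepatocytes of a different rat, after collagenase perfusion of the liver. The labels write the strain of all animals as Fischer 334. Groups of 3 animals were heart-beating donors and donors that had been dead for 4, 16 or 30 h, with no other treatment or allele named in the labels. The question is whether, and when after death, transcripts of these enzymes in isolated hepatocytes move away from their level in a heart-beating donor. All 3 comparisons with that group share its 3 arrays.

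These enzymes carry out steps by which the liver disposes of amino acids that are not needed for protein. Their carbon goes to glucose or ketone bodies and their nitrogen to urea, and tryptophan breakdown also supplies the precursor of nicotinamide nucleotides. In rat liver, Tat, Tdo2 and Sds are textbook targets of glucocorticoids, and Tat and Sds also of glucagon through cyclic AMP, so their transcripts follow feeding, fasting and stress. Hpd and Fah are abundant in liver. Loss of FAH causes hereditary tyrosinaemia in humans.

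The regions at the start of the genes were taken from RefSeq (rat build GRCr8), where 6 of the 9 genes had an entry (Tdo2, Kmo, Haao, Tat, Hpd and Fah). The sequences of Tdo2 and Kmo are shown because these tryptophan enzymes were the members called lower at 30 h. Each runs from 250 bases before to 50 bases after the start that RefSeq's table uses, 5′ to 3′ on the gene's strand, with the 50 bases from the start on in capitals. That of Tdo2 is chr2:169585537-169585836 on the minus strand and that of Kmo chr13:90089271-90089570 on the plus strand.
Tdo2: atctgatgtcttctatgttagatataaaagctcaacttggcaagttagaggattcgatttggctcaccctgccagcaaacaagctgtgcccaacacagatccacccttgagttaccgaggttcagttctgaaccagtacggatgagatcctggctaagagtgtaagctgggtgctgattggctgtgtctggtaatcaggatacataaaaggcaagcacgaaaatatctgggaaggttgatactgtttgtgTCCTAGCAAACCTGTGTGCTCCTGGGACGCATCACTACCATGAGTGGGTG
Kmo: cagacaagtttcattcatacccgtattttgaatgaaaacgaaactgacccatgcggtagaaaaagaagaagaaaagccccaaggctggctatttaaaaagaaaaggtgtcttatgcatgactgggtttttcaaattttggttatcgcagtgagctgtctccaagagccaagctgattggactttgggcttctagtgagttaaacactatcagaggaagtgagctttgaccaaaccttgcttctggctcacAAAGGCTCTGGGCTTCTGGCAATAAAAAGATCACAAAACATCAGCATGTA
Their GC content was 47.0% and 41.7%. On either strand, AGAACA and TGTTCT with 3 bases between them (the full glucocorticoid receptor element), TGACGTCA (the cyclic AMP response element), TTGCGCAA (a C/EBP site) and GTTAAT and ATTAAC with 1 base between them (an HNF1 site) matched 0 of the 6 member windows, and 0.0149%, 1.83%, 0.17% and 0.00299% of all 33469 windows of the same length. AGAACA alone, which is also the first part of the full element, matched 1 of the 6 windows, that of Haao, against 20.7% of all windows.

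Replicate arrays of 1 group correlated at 0.9913 to 0.9969 across probe sets. The 30 h group had the lowest of these values (0.9913 to 0.9939) and the widest spread. Its median SD over probe sets was 0.115, against 0.075 in heart-beating donors, 0.081 at 4 h and 0.083 at 16 h. Hepatocyte markers read at the top of the array, with Alb, the gene of albumin, at a mean log2 signal of 14.50, and the log2 of the summed signal of 11 measured markers lay within 16.47 to 16.58 at 30 h and 16.60 to 16.64 in heart-beating donors. That sum is carried by the brightest of them: singly, 3 of the 11 were called lower at 30 h, the asialoglycoprotein receptor genes Asgr1 (-1.14) and Asgr2 (-1.33) and the apolipoprotein gene Apoa1 (-0.28), and 1 higher, the liver transcription factor gene Hnf4a (0.76), beside 10.5% of all genes called lower and 12.5% higher. RNA quality moved with time: the 3′ control probe set of Gapdh exceeded its 5′ probe set by a log2 difference of 0.39 ± 0.08 in heart-beating donors and 0.38 ± 0.10 at 4 h, then by 1.05 ± 0.20 at 16 h and by 1.97 ± 0.29 at 30 h (SD, n = 3 each). In exact permutation tests (two-sided) with the heart-beating arrays as the other group, p was 1 for 4 h and 0.1 for 16 h and for 30 h, the smallest that 3 arrays against 3 can give. The part of RNA quality in the differences from heart-beating donors cannot be told apart from that of time at 16 h or at 30 h. Neither group overlapped heart-beating donors in the Gapdh difference. The 16 h arrays (0.85 to 1.25) also lay apart in it from those at 4 h (0.27 to 0.46) and 30 h (1.79 to 2.30). The same limit therefore holds for 16 h minus 4 h and for 30 h minus 16 h. Actb, the other control gene, separated the 16 h group less clearly. Its 3′ minus 5′ difference was 1.85 ± 0.05 in heart-beating donors, 2.21 ± 0.33 in the 16 h group and 2.87 ± 0.11 in the 30 h group (SD, n = 3 each). The 16 h group overlapped heart-beating donors in Actb, with its animal 1 (1.886) below donor 2 (1.899). The exact permutation p for Actb was 0.2 for 16 h and 0.1 for 30 h. Only the Gapdh difference was used as a covariate. Markers of some other cells moved too. Beside the same 12.5% of all genes, 4 of 5 red cell markers were called higher at 30 h. Their log2 summed signal was 13.74 to 14.33, against 12.06 to 12.38 in heart-beating donors. Likewise 5 of 9 stellate cell markers were called higher, at 11.87 to 12.29 against 11.21 to 11.69. Of endothelial markers 1 of 6 was called higher, a share near that of all genes, and the sums overlapped (10.98 to 11.64 against 11.04 to 11.26). Of bile duct cell and of lymphocyte markers, 0 of 5 each were called. The part of other cells in the members' differences was not tested. As the deposited values place each transcript relative to the rest of its array, and each array is a bulk sample, fewer cells of a type and less RNA per cell cannot be told apart.

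The first question was how each interval compared with the heart-beating state. At 30 h, Tdo2 and Kmo fell and Prodh (1372920_at) rose, and the other 7 probe sets did not pass. A probe set was called when its limma p, adjusted by the Benjamini-Hochberg method over all 31042 probe sets, was under 0.05. So 3 of 10 member probe sets were called at 30 h, beside 19.7% of all probe sets, with 1 higher (10.4% of all) and 2 lower (9.36% of all), a share near that of the array as a whole. The median log2 difference of the members at 30 h was -0.24, against 0.01 over all probe sets, and 8 of the 10 were below 0. At an unadjusted p under 0.05 there were 4 of 10, beside 31.6% of all. With the Gapdh difference as a covariate, limma called 0 of 10 members and 0 of all probe sets at 30 h, and Tdo2 read 0.28, Kmo 0.22 and Prodh (1372920_at) 0.46. At 4 h, limma called 0 of 10 (0.0226% of all probe sets), with 3 at an unadjusted p under 0.05 (5.27% of all). At 16 h it called 0 of 10 (4.67% of all), with 1 at an unadjusted p under 0.05 (19.1% of all). The median of the members was -0.06 at 4 h, against 0.00 over all probe sets, and 0.07 at 16 h, against -0.02.

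**Figure D1:**
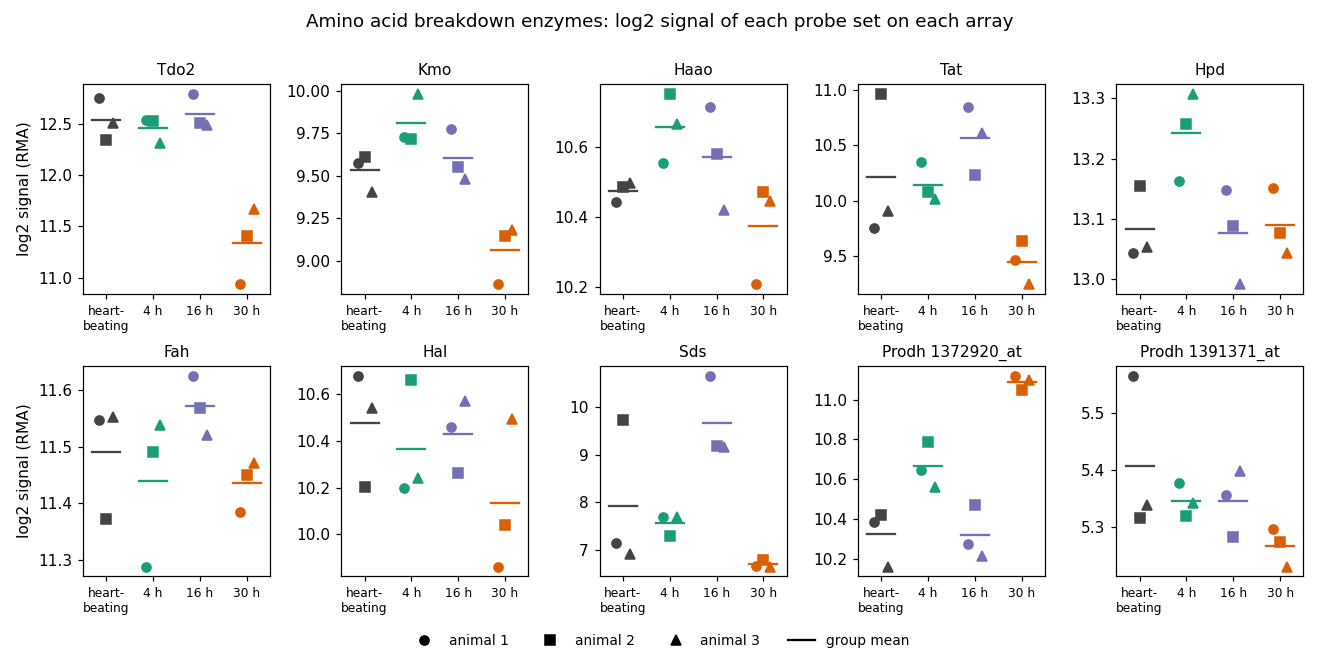
Log2 signal of the 10 member probe sets on each of the 12 arrays, by group from heart-beating donors to 30 h; symbols are the animals, lines the group means, and each panel has its own axis. Tdo2 and Kmo lie lowest at 30 h with no overlap with the other groups, Prodh (1372920_at) lies highest there, and Sds has the widest spread, with heart-beating donor 2 at 9.74 near the 16 h arrays.

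**Figure D2:**
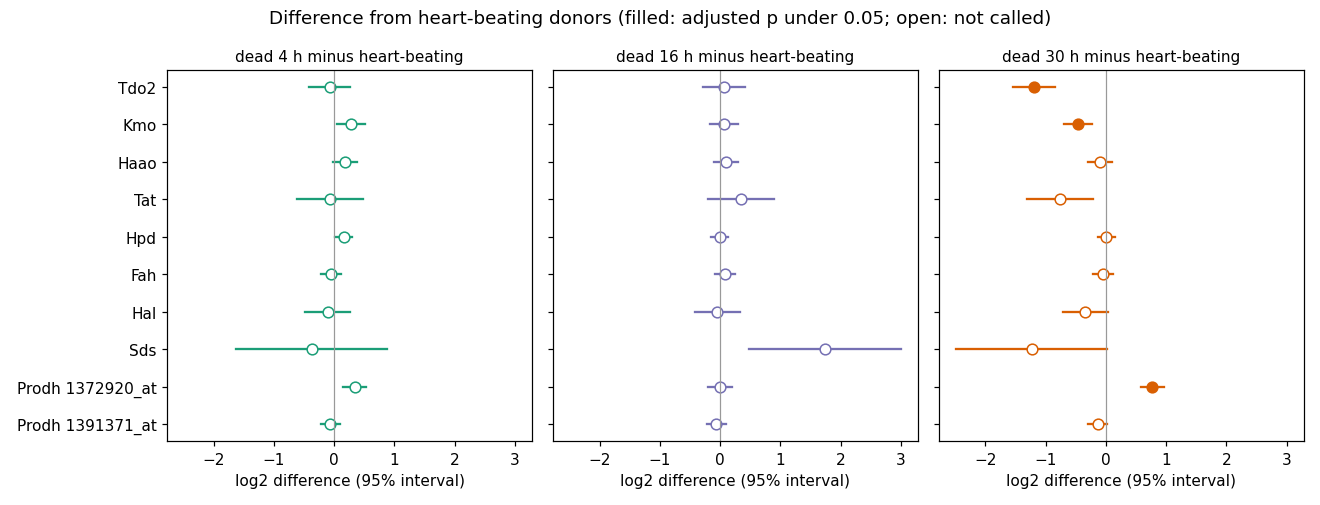
Log2 difference of each member probe set from heart-beating donors at 4, 16 and 30 h, with its 95% interval from limma; filled points have an adjusted p under 0.05. The only filled points are Tdo2 (-1.20), Kmo (-0.47) and Prodh 1372920_at (0.77), all at 30 h, and the widest intervals are those of Sds.

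Tdo2, tryptophan dioxygenase, opens the indole ring of tryptophan and sets the pace of the kynurenine pathway. Its log2 signal was 12.75, 12.35 and 12.51 in the heart-beating donors, 12.54, 12.53 and 12.32 at 4 h, 12.80, 12.51 and 12.49 at 16 h, and 10.93, 11.41 and 11.67 at 30 h. All 3 arrays at 30 h lay below all 9 others, and the other groups overlapped one another. At 30 h its log2 difference from heart-beating donors was -1.20 (SE 0.16, 95% interval -1.55 to -0.85, adjusted p = 0.000266 by limma), a 2.30-fold lower signal. The differences at 4 h (-0.08) and 16 h (0.06) were within an SE of 0.16. Its mean signal over the 12 arrays exceeded that of 99.6% of probe sets.

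Kmo, kynurenine monooxygenase of the outer mitochondrial membrane, adds a hydroxyl group to kynurenine further down the same pathway. Its log2 signal was 9.58, 9.61 and 9.41 in the heart-beating donors, 9.73, 9.71 and 9.98 at 4 h, 9.77, 9.55 and 9.48 at 16 h, and 8.86, 9.14 and 9.18 at 30 h. The 30 h arrays lay below all others, and the 4 h arrays lay above those of heart-beating donors. At 30 h Kmo was lower by a log2 difference of -0.47 (SE 0.11, 95% interval -0.70 to -0.23, adjusted p = 0.00849 by limma), a 1.38-fold lower signal. At 4 h the difference was 0.28 (SE 0.11), which did not pass after adjustment (adjusted p = 0.924 by limma). Kmo is also a gene of macrophages, and markers of Kupffer cells, the liver's macrophages, were lower on the same arrays: 4 of 8 measured were called lower at 16 h and 7 of 8 at 30 h (1.3% and 10.5% of all genes by their brightest probe set), and the log2 of their summed signal lay between 11.92 and 11.9985 in heart-beating donors, between 11.85 and 12.27 at 4 h, between 11.37 and 11.60 at 16 h and between 11.01 and 11.38 at 30 h. Clec4f, a lectin that defines rat and mouse Kupffer cells, was the exception at 30 h (-0.32, SE 0.11, adjusted p = 0.0611 by limma), and its log2 signal averaged 9.53 at 30 h and 9.85 in heart-beating donors. The part of these cells in the Kmo signal was not tested. At 16 h Kmo differed from heart-beating donors by 0.07 (SE 0.11).

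Haao opens the ring of hydroxyanthranilate on the way to quinolinate and nicotinamide nucleotides. Its log2 signal was 10.44, 10.49 and 10.50 in the heart-beating donors, 10.56, 10.75 and 10.67 at 4 h, 10.72, 10.58 and 10.42 at 16 h, and 10.21, 10.47 and 10.45 at 30 h. The 30 h and the heart-beating arrays overlapped, and the difference of -0.10 (95% interval -0.30 to 0.09) was not called (adjusted p = 0.49 by limma). The 4 h arrays lay above those of heart-beating donors, by a log2 difference of 0.18 (SE 0.09), without a call (adjusted p = 0.951 by limma). Thus of the 3 tryptophan enzymes, Tdo2 and Kmo passed at 30 h and Haao did not, a contrast between genes that was not itself tested.

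Tat, tyrosine aminotransferase, removes the amino group of tyrosine and is the rate-limiting step of its breakdown. Its log2 signal was 9.76, 10.96 and 9.91 in the heart-beating donors, 10.35, 10.08 and 10.01 at 4 h, 10.84, 10.24 and 10.61 at 16 h, and 9.47, 9.64 and 9.25 at 30 h. Heart-beating donor 2 was the highest of all 12 arrays, and all 30 h arrays lay below all others. The difference at 30 h was -0.76 (SE 0.25, 95% interval -1.31 to -0.22) and narrowly missed the threshold (adjusted p = 0.0504 by limma). It passed where 1 probe set a gene was tested (adjusted p = 0.0455 by limma), among the upper 50% of probe sets by signal (adjusted p = 0.0368) and without heart-beating donor 1 (-0.99, adjusted p = 0.0212), and it was -0.39 without donor 2 (adjusted p = 0.146). At 16 h the difference was 0.35 (SE 0.25, adjusted p = 0.49 by limma), and it moved with each heart-beating donor left out: 0.12 without donor 1 (adjusted p = 0.851), 0.73 without donor 2, where it passed (adjusted p = 0.033), and 0.20 without donor 3 (adjusted p = 0.802).

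Hpd, which makes homogentisate, and Fah, which releases fumarate and acetoacetate in the last step of tyrosine breakdown, were not called at any time. Hpd was the brightest member, with log2 signals of 13.04, 13.15 and 13.05 in the heart-beating donors, 13.16, 13.26 and 13.31 at 4 h, 13.15, 13.09 and 12.99 at 16 h, and 13.15, 13.08 and 13.04 at 30 h. Its 4 h arrays all lay above those of heart-beating donors (0.16, SE 0.07, adjusted p = 0.933 by limma). Its 95% interval at 30 h was -0.14 to 0.15, so a change of more than 0.15 log2 units lies outside it. Fah read 11.55, 11.37 and 11.55 in the heart-beating donors, 11.29, 11.49 and 11.54 at 4 h, 11.63, 11.57 and 11.52 at 16 h, and 11.38, 11.45 and 11.47 at 30 h. Fah at 30 h overlapped with heart-beating donors, with a 95% interval of -0.22 to 0.11. For both probe sets the adjusted p at 30 h was far from the threshold (0.967 for Hpd and 0.681 for Fah by limma).

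Hal, histidase, removes ammonia from histidine to give urocanate. Its log2 signal was 10.68, 10.20 and 10.54 in the heart-beating donors, 10.20, 10.66 and 10.24 at 4 h, 10.46, 10.26 and 10.57 at 16 h, and 9.86, 10.04 and 10.50 at 30 h. The groups overlapped at every time, and the spread between animals at 30 h (SD 0.33) was as large as the difference of -0.34 (SE 0.17, adjusted p = 0.191 by limma). Leaving out each array moved this difference between -0.52 and -0.21, and without 30 h animal 3, the highest of its group, it was -0.52 and passed (adjusted p = 0.0365).

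Sds, serine dehydratase, turns serine into pyruvate and ammonia and feeds glucose synthesis in fasting. Its log2 signal was 7.14, 9.74 and 6.91 in the heart-beating donors, 7.70, 7.29 and 7.70 at 4 h, 10.67, 9.19 and 9.17 at 16 h, and 6.66, 6.78 and 6.65 at 30 h. The 16 h arrays were high, the 30 h arrays lowest and close together, and heart-beating donor 2 stood 2.59 log2 units above the other heart-beating donors, within the range of the 16 h arrays. The SD of 1.57 among heart-beating donors exceeded that of 99.98% of probe sets. Sds was the most variable member across the study, and its group means ran, in order, 6.70 ± 0.07 at 30 h, 7.56 ± 0.24 at 4 h, 7.93 ± 1.57 in heart-beating donors and 9.68 ± 0.86 at 16 h (SD, n = 3 each). At 16 h it was 3.35-fold higher than in heart-beating donors, a log2 difference of 1.75 (SE 0.58, 95% interval 0.49 to 3.00) that was not called (adjusted p = 0.114 by limma). That difference was 1.35 without heart-beating donor 1 (adjusted p = 0.295), 2.65 without donor 2, where it passed (adjusted p = 0.00179), and 1.24 without donor 3 (adjusted p = 0.367). With array weights, which gave the arrays unequal influence, it was 1.83 and passed (adjusted p = 0.0433). At 30 h the difference was -1.23 (SE 0.58, adjusted p = 0.167 by limma), and -0.33 without donor 2.

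Prodh, proline dehydrogenase of the inner mitochondrial membrane, takes the first step of proline oxidation. The bright probe set 1372920_at read 10.39, 10.42 and 10.16 in the heart-beating donors, 10.65, 10.79 and 10.56 at 4 h, 10.27, 10.47 and 10.22 at 16 h, and 11.12, 11.05 and 11.10 at 30 h. The 30 h arrays lay above all others, the 4 h arrays came next, and the 16 h arrays overlapped those of heart-beating donors. At 30 h it rose by a log2 difference of 0.77 (SE 0.09, 95% interval 0.58 to 0.96, adjusted p = 9.63e-05 by limma), a 1.70-fold higher signal. At 4 h the difference was 0.34 (SE 0.09), with an unadjusted limma p of 0.00204 and an adjusted p of 0.668. The second probe set, 1391371_at, was dim, with a mean signal above that of only 38.8% of probe sets. It read 5.57, 5.32 and 5.34 in the heart-beating donors, 5.38, 5.32 and 5.34 at 4 h, 5.36, 5.28 and 5.40 at 16 h, and 5.30, 5.27 and 5.23 at 30 h. Its 30 h arrays lay below those of heart-beating donors (-0.14, SE 0.07, adjusted p = 0.208 by limma), so the rise of Prodh rests on 1 probe set and the other did not share it.

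The times were then compared with each other, which asks whether the change went on between them. At 16 h relative to 4 h, Sds rose by a log2 difference of 2.12 (SE 0.58, adjusted p = 0.0425 by limma) and the bright Prodh probe set was lower at 16 h than at 4 h, at -0.34 (SE 0.09, adjusted p = 0.0324 by limma). These were 2 of 10 members, beside 7.82% of all probe sets, with 1 higher (5.31% of all) and 1 lower (2.52% of all), and 3 had an unadjusted p under 0.05 (23.2% of all). Both calls were narrow: leaving out any 1 of the 4 h or 16 h arrays ended that of Sds, with adjusted p from 0.0538 to 0.177, and leaving out 4 h animal 1 or 2 or 16 h animal 1 or 3 ended that of Prodh, with adjusted p from 0.0805 to 0.125. Arrays outside this comparison enter through the spread that all groups share in the fit. The call of Sds ended without 30 h animal 2 (adjusted p = 0.0502 by limma). It stayed without heart-beating donor 1 (adjusted p = 0.0422), donor 2 (adjusted p = 0.00162) or donor 3 (adjusted p = 0.035).

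Between 30 h and 16 h, 5 of 10 members were called, beside 10.2% of all probe sets, with 4 lower (5.95% of all) and 1 higher (4.29% of all), and 6 had an unadjusted p under 0.05 (25.7% of all). Sds had the largest log2 difference among the members, -2.98 (SE 0.58, limma's adjusted p = 0.00699), a 7.89-fold lower signal at 30 h than at 16 h. Tdo2 (-1.26, SE 0.16, adjusted p = 0.000623), Tat (-1.11, SE 0.25, adjusted p = 0.0148) and Kmo (-0.54, SE 0.11, adjusted p = 0.00805) were also lower by limma. Prodh (1372920_at) rose by 0.77 (SE 0.09, adjusted p = 0.000341 by limma). The 30 h and the 16 h arrays did not overlap for these 5 probe sets and for Fah (-0.14, SE 0.08), which was not called (adjusted p = 0.293 by limma), so for 6 of 10, beside 26.6% of all probe sets. Without 16 h animal 1, which had the highest Sds and the highest Tat of its group, Tat was no longer called (-0.97, adjusted p = 0.0791), and Sds remained called (-2.48, adjusted p = 0.0418). With the Gapdh difference as a covariate limma called 0 of the 10 for 30 h minus 16 h, and Sds read -2.36.

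Sds and Tat shared a further feature across animals, a high value in heart-beating donor 2. Of the 10 member probe sets, 2 read at least 1 log2 unit higher in donor 2 than in both other heart-beating donors. They were Sds (by 2.59) and Tat (by 1.05), and 0.248% of all probe sets had such a gap. Donor 2 was singled out by the values of Sds and Tat themselves, so this share is a description. Of the 10, 5 were highest in donor 2 among the heart-beating donors, beside 32% of all probe sets. Tdo2, also a glucocorticoid target, was lowest in donor 2 among the heart-beating donors (12.35, against 12.75 and 12.51 in donors 1 and 3). Among 13 listed regulators and targets of glucocorticoids and fasting, 12 were measured, and 5 of them showed the same gap: Igfbp1 (2.16), an insulin-like growth factor binding protein of fasting, Tsc22d3 (1.26), a glucocorticoid-induced leucine zipper protein, Klf9 (1.23), a glucocorticoid-responsive zinc finger factor, Cebpb (1.10), a liver bZIP factor, and Pck1 (1.07), the gluconeogenic carboxykinase. These genes were picked from the list after their values were seen. Cebpa, Foxo1 and Ppargc1a of the same list were not highest in donor 2, and Fkbp5 had a gap of 0.10. High values were not confined to donor 2 and the 16 h arrays: 4 h animal 1 read 9.95 for Tsc22d3 and 12.93 for Pck1. Donor 2 read 9.78 and 13.12. Sds was 7.70 in 4 h animal 1, against 9.74 in donor 2. The cause of the high values in donor 2 was not tested.

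At 16 h, 3 of the 12 regulators were called higher and 0 lower (4.3% and 1.3% of all genes by their brightest probe set), and all 12 were above 0, with a median of 0.69 against -0.01 over all genes. The 3 were Klf15 (1.02, SE 0.21, adjusted p = 0.0148 by limma), a factor that drives amino acid breakdown in mouse liver, Cebpa (0.74, SE 0.15, adjusted p = 0.017) and Per1 (0.65, SE 0.11, adjusted p = 0.006), a clock gene that glucocorticoids induce. At 30 h Cebpa was higher (0.70, SE 0.15, adjusted p = 0.0066) and Klf9 lower (-0.97, SE 0.29, adjusted p = 0.0338), and at 4 h limma called 0 of 12, with 0 at an unadjusted p under 0.05. The receptor itself, Nr3c1, differed by 0.37 at 16 h without a call (adjusted p = 0.0545 by limma). On the same 16 h arrays, beside the same 4.3% of all genes, 3 of 6 endothelial markers (Lyve1 0.88, Fcgr2b 0.78 and Stab2 0.56), 3 of 5 red cell markers and 2 of 9 stellate cell markers were called higher. The log2 of their summed signals lay between 11.75 and 11.77, 13.78 and 14.07, and 11.89 and 12.04 at 16 h, against 11.04 and 11.26, 12.06 and 12.38, and 11.21 and 11.69 in heart-beating donors. Their part in the regulators and in Sds was not tested.

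**Figure D3:**
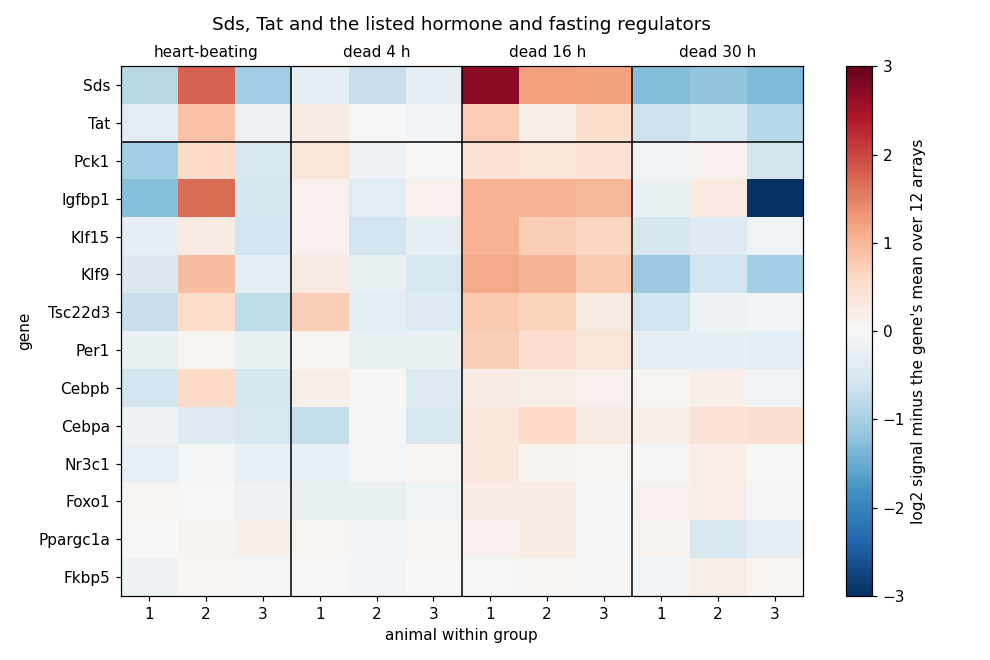
Log2 signal of Sds, Tat and the 12 measured regulators on each array, each gene centred on its mean over the 12 arrays (colour scale), with arrays in columns by group. Sds, Tat, Igfbp1, Klf9, Tsc22d3 and Pck1 are high in heart-beating donor 2 and in most 16 h arrays, and Sds, Tat and Klf9 are low at 30 h. Tsc22d3 and Pck1 are also high in 4 h animal 1.

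The members were set beside the other genes of amino acid breakdown, a list of 59 of which 53 were measured, each by its brightest probe set. At 30 h, 22 fell, 7 rose and 24 did not pass, beside 10.5% of all genes called lower and 12.5% called higher, and their median log2 difference was -0.26 against 0.01 over all genes. Those with the smallest p were Gstz1 (-1.11, SE 0.09, adjusted p = 1.27e-05 by limma), an isomerase that acts just before Fah, Qdpr (-1.47, SE 0.16, adjusted p = 5.26e-05), which regenerates the cofactor of phenylalanine hydroxylation, Hibadh (-0.79, SE 0.09, adjusted p = 0.000124), of valine breakdown, and Kynu (-1.20, SE 0.15, adjusted p = 0.000199), the kynureninase between Kmo and Haao. At 16 h, 5 fell and 1 rose (1.3% and 4.3% of all genes). They were Afmid (-0.58, SE 0.12), the formamidase that follows Tdo2, Acadsb (-0.32, SE 0.07), on a dim probe set with a log2 signal near 4, Mccc1 (0.37, SE 0.09), of leucine breakdown and the gene that rose, and Qdpr (-0.64, SE 0.16), with Kynu (-0.60, SE 0.15) and Aass (-0.47, SE 0.11), of lysine breakdown, named after their values were seen. The count at 16 h depended on single animals: it was 0 to 3 without any 1 of the heart-beating or 16 h arrays, and 9 without 30 h animal 1. At 4 h limma called 0 of 53, with 4 at an unadjusted p under 0.05, and 0.00703% of all genes were called higher and 0% lower.

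At 30 h, genes of histidine, serine-glycine-threonine, proline-ornithine and branched-chain breakdown were called in both directions. Those of tryptophan, of phenylalanine and tyrosine, and of lysine, and the aminotransferases and glutamate enzymes, were called lower only. The counts below stand beside 10.5% of all genes called lower and 12.5% called higher. The 7 of 53 that rose were near the latter share. In tryptophan breakdown 3 of 6 fell, Kynu, Qprt (-0.50, SE 0.10) and the dim Ido1 (-0.26, SE 0.07), while Afmid read 0.26 (SE 0.12) without a call. In phenylalanine and tyrosine breakdown 2 of 3 fell, Gstz1 and Qdpr, and Hgd, between Hpd and Gstz1, read -0.25 (SE 0.09, adjusted p = 0.0707 by limma). In histidine breakdown, Ftcd fell (-0.74, SE 0.12) and Uroc1, the step after Hal, rose (0.35, SE 0.10). In proline and ornithine breakdown 2 of 4 fell and 1 rose: Aldh4a1, which completes the oxidation begun by Prodh (-0.42, SE 0.11), and Hoga1, of hydroxyproline breakdown (-0.61, SE 0.11), fell, and Prodh2, which oxidizes hydroxyproline, rose (0.43, SE 0.09). In serine, glycine and threonine breakdown 3 of 10 fell and 3 rose, with Gcsh (-1.06, SE 0.15), Gldc (-0.90, SE 0.16) and Amt (0.54, SE 0.08), subunits of 1 glycine cleavage system, on both sides. Among branched-chain genes 7 of 18 fell and 2 rose, among lysine genes 2 of 3 fell, and among aminotransferases and glutamate enzymes 2 of 7 fell. These genes were named after their values were seen, except those chosen by p.

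**Figure D4:**
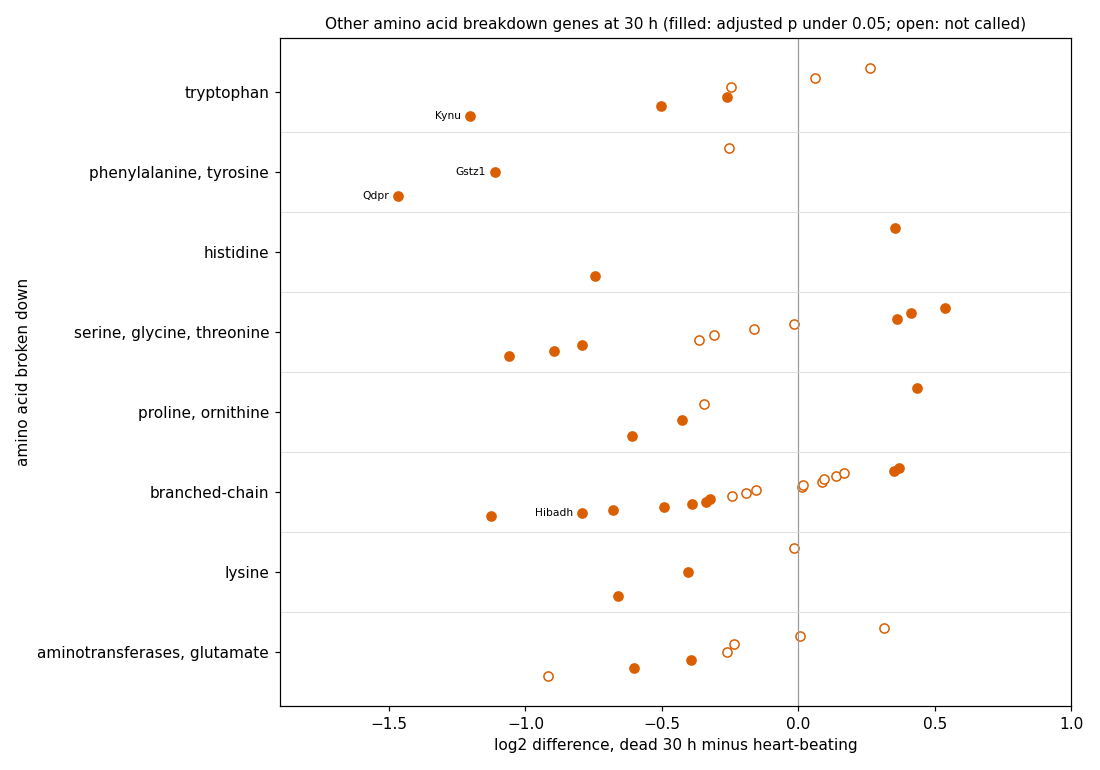
Log2 difference at 30 h from heart-beating donors of 53 other amino acid breakdown genes, in rows by amino acid; filled points have an adjusted p under 0.05, and names mark the 4 genes with the smallest p. Of the filled points 22 lie below 0 and 7 above it.

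For each member called against heart-beating donors, the most similar genes over the 12 arrays were found by the root mean square difference after each gene was centred on its own mean. Closest to Tdo2 were Asgr1 (0.12 log2 units), a subunit of the asialoglycoprotein receptor of hepatocytes, and C10h5orf15 (0.13), with differences at 30 h of -1.14 and -1.09. Closest to Kmo were Apoc2 (0.09), an apolipoprotein, and Cd1d1 (0.09), a lipid antigen presenting protein, at -0.43 and -0.31. Closest to Prodh (1372920_at) were Mybbp1a (0.13), a nucleolar Myb-binding protein, and LOC100912002 (0.14), at 0.70 and 0.63. These genes were chosen for their likeness over the same arrays, so their values are a description.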

How the data were processed

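The 12 Affymetrix arrays each hold 1 animal. The authors deposited log2 signals of probe sets made with RMA and tested with limma, per the submitters' processing notes. No version or setting is given in the sources used here. Array medians lay between 5.83 and 5.90, so a loss shared by all transcripts leaves no trace. Intensities have no count depth, and the number of arrays limits the precision.

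Group means were fitted with limma 3.58.1 (lmFit and eBayes, R 4.3.3) over all 12 arrays to all 31042 non-control probe sets, without a filter, with 8 residual and 4.93 prior degrees of freedom. The adjustment ran over all of these probe sets in each of 5 comparisons, and 95% intervals are from the same fit. Of these probe sets, 20826 carried 1 gene symbol, 436 several and 9780 none in the platform annotation, and symbols of listed genes were updated by gene ID through RefSeq. Genes outside the members were each read by their brightest probe set, over 14217 genes.

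The members and lists were chosen with earlier results of these data known. All member probe sets were named. Of the other breakdown genes, the rule named up to 4 called genes a comparison by the smallest p, and of the regulators those called. For each called member it named the 2 most similar genes. Further names are marked in the text. The model was tested on simulated data. Alternatives were median centring, cyclic loess, the upper 50% of probe sets, 1 probe set a gene, a robust variance trend, array weights, only the groups compared, the replicate number as a block, the Gapdh difference as a covariate, no 30 h arrays, and leaving out each array. For the other breakdown genes, those beyond the mean of all probe sets were added after the data were seen. No batch is named in the labels.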

Additional observations from a re-analysis of the deposited data

Results flagged for a closer look

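The change from heart-beating donors differed between times in 7 results, by limma's test of the difference between the times. Between 16 h and 4 h, Sds differed by 2.12 (adjusted p = 0.0425) and Prodh (1372920_at) by -0.34 (adjusted p = 0.0324). Between 30 h and 16 h, Tdo2 differed by -1.26, Kmo by -0.54, Tat by -1.11, Sds by -2.98 and Prodh (1372920_at) by 0.77 on the log2 scale, with adjusted p from 0.000341 to 0.0148. With 3 arrays a group, single arrays were not tested as outliers.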

How the results depend on the processing

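At 30 h against heart-beating donors, 3 or 4 member probe sets were called in every setting but the one with the Gapdh difference between 3′ and 5′ probe sets as a covariate, with 0 members and 0 of all 31042 probe sets called. The Gapdh difference does not overlap between these groups, so the fit cannot separate it from time. Leaving out each array gave 0 at 4 h, 0 to 2 at 16 h, 3 to 4 at 30 h, 4 to 5 for 30 h minus 16 h and 0 to 2 for 16 h minus 4 h. Array weights gave 1 at 16 h. For 16 h minus 4 h, 1 was called with median centring, the replicate block or no 30 h arrays, and 0 with a variance trend or the Gapdh covariate, which also gave 0 for 30 h minus 16 h. For the other breakdown genes at 16 h, the count of 6 became 3 with median centring, 14 with array weights, 3 with the replicate block, 0 with the Gapdh covariate and 0 to 9 without each array. At 30 h their count of 29 became 0 with the Gapdh covariate and 23 to 30 without each array.

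Of the 6 pairs of arrays with the same replicate number, 1, 1 and 0 had a correlation of deviations over 0.1 for numbers 1, 2 and 3. Such a count cannot show whether animals of 1 number were handled together. With the block, the 3 calls at 30 h and the 5 for 30 h minus 16 h remained in number, and Sds for 16 h minus 4 h had an adjusted p of 0.0605. Over all probe sets, counts moved with array weights (3628 at 16 h in place of 1449, 4098 in place of 2428 for 16 h minus 4 h, and 18 in place of 7 at 4 h), without the 30 h arrays (2505 at 16 h, 3720 for 16 h minus 4 h), with 1 probe set a gene (1 at 4 h, 845 at 16 h, 3318 at 30 h, 1511 for 16 h minus 4 h and 1821 for 30 h minus 16 h), with only the groups compared (1679 for 30 h minus 16 h in place of 3180, 1 at 4 h), with the Gapdh covariate (70 at 16 h, 1302 for 16 h minus 4 h, 8 for 30 h minus 16 h), and at 4 h also with cyclic loess (4), the upper 50% (4), a variance trend (3) and the block (2). Without each array the lowest and highest counts were 1 and 11 at 4 h, 448 and 2157 at 16 h, 4202 and 6045 at 30 h, 1081 and 3256 for 16 h minus 4 h, and 1265 and 4138 for 30 h minus 16 h. Of the 7 calls at 4 h, 42.9% were higher, against 75% of the 4 after cyclic loess.

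Signs turned in 51 of 1070 recomputed member differences, and the cause was not tested. With the Gapdh covariate, at 30 h Tdo2 read 0.28, Kmo 0.22, Haao 0.66, Hpd -0.076, Fah 0.27 and Hal 0.98, at 16 h Hal 0.51, for 16 h minus 4 h Kmo 0.086 and Haao 0.24, and for 30 h minus 16 h Haao 0.24, Hpd -0.033, Fah 0.051 and Hal 0.47, of which 0 were called. With median centring, Hpd read 0.016 and Prodh (1372920_at) 0.023 at 16 h, Prodh (1391371_at) 0.031 for 16 h minus 4 h and Hpd -0.0084 for 30 h minus 16 h. With cyclic loess, Hpd read 0.038 at 16 h, Fah 0.057 at 30 h, and for 16 h minus 4 h Hal -0.00088 and Prodh (1391371_at) 0.055. With array weights, Tat read 0.0098 at 4 h, Prodh (1372920_at) 0.069 at 16 h, Hpd -0.0066 at 30 h and -0.00075 for 30 h minus 16 h. Without each array, differences at 4 h ran from -0.11 to 0.024 for Fah, -0.11 to 0.019 for Prodh (1391371_at), -0.88 to 0.53 for Sds, -0.29 to 0.31 for Tat and -0.17 to 0.033 for Tdo2. At 16 h they ran from -0.18 to 0.058 for Hal, -0.044 to 0.034 for Hpd, -0.015 to 0.13 for Kmo, -0.082 to 0.051 for Prodh (1372920_at), -0.11 to 0.019 for Prodh (1391371_at) and -0.039 to 0.17 for Tdo2. They ran from -0.024 to 0.041 for Hpd at 30 h, from -0.019 to 0.21 for Hal and -0.027 to 0.031 for Prodh (1391371_at) for 16 h minus 4 h, and from -0.028 to 0.051 for Hpd for 30 h minus 16 h.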
